A study of Mus musculus with 4 samples.

Results

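A set of 10 heat shock protein genes was followed through single-cell RNA sequencing of hepatic nonparenchymal cells: Hspa1a, Hspa1b, Hsph1, Dnajb1, Dnaja1, Hspa8, Hsp90aa1, Hsp90ab1, Hspe1 and Hspd1. They were found by symbol, and all 10 are among the 55450 genes that the files list. They were selected on the measured levels of Hspa1a and Hspa1b, which were higher in lymphocytes at the higher celecoxib dose, so the values of that contrast describe the selection and carry no test. The libraries came from 4 wild-type C57B6 mice aged 18 to 20 weeks, 1 per group. The control mouse received saline, and the mouse called TAA had intraperitoneal thioacetamide over 12 weeks, a hepatotoxin used to make fibrotic livers. The mice called TAA+C7.5 and TAA+C30 had the same injections and from week 5 were also gavaged with celecoxib, a cyclooxygenase-2 inhibitor, at 7.5 and 30 mg/kg. Livers were digested, red cells lysed and most hepatocytes spun out before droplet sequencing. With 1 mouse per group, animal, treatment and library cannot be told apart, no difference has a replicate check, and every comparison is one between libraries.

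Heat shock proteins are chaperones, which bind unfolded or unstable proteins and help them to fold. Members of the HSP70 family (Hspa1a, Hspa1b and Hspa8) hold short stretches of unfolded protein in cycles of ATP hydrolysis, J-domain proteins (Dnajb1 and Dnaja1) deliver clients to them, and Hsph1 exchanges their nucleotide. HSP90 proteins (Hsp90aa1 and Hsp90ab1) act later on kinases and receptors, and Hspd1 with its lid Hspe1 folds proteins inside mitochondria. When proteins unfold, heat shock factor 1 binds heat shock elements, runs of inverted nGAAn units, and drives the inducible members, whereas Hspa8 and Hsp90ab1 are made in most cells at all times. Enzymatic digestion of a tissue is itself known to induce these genes together with immediate early genes such as Fos and Jun.

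On the GRCm38 build, Hspa1a lies at chr17:34969190-34972156 and Hspa1b at chr17:34956436-34959238, both on the minus strand and 9951 bases apart. Their coding parts are 99.4% identical (1918 of 1929 aligned bases), and the 250 bases before their starts are 98.8% identical (247 of 250). The parts after the stop codon are 48.1% identical, so the ends that a 3 prime library counts differ between the genes. How reads were shared between the pair was not checked, and summed values are given below. Hsph1 is at chr5:149614287-149636376, Dnajb1 at chr8:83608193-83612653, Dnaja1 at chr4:40722150-40737149 and Hspa8 at chr9:40800984-40810087. Hsp90aa1 is at chr12:110690605-110702728 and Hsp90ab1 at chr17:45567775-45573271. Hspe1 (chr1:55088132-55091307, plus strand) and Hspd1 (chr1:55077835-55088243, minus strand) stand head to head and overlap at their starts.

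RefSeq windows of 250 bases before a start (GRCm38.p6) were at hand for 7 of the 10 genes, Hspa8, Hsp90aa1 and Hsp90ab1 being the others. They were searched on both strands for inverted units, which read GAANNTTC or TTCNNGAA for 2 units and GAANNTTCNNGAA or TTCNNGAANNTTC for 3, so that each 3-unit match also holds 2-unit matches. These genes have 12 windows, since a gene can have several starts. A 2-unit match was found in 7 of the 12, against 12.8% of all 32807 windows, and these 7 belong to 6 of the 7 genes, with overlapping windows for Hsph1. A 3-unit match was found in 2 of the 12, against 0.466% of all windows, and both hold the same stretch, which Hspe1 and Hspd1 share. A match describes the letters and is not a shown binding site. The windows of the near-identical pair are printed because Hspa1a and Hspa1b had the largest ratios of TAA+C30 to TAA in lymphocytes, with the 2-unit match in capitals, 5′ to 3′ on the minus strand (chr17:34972157-34972406 and chr17:34959239-34959488).
Hspa1a: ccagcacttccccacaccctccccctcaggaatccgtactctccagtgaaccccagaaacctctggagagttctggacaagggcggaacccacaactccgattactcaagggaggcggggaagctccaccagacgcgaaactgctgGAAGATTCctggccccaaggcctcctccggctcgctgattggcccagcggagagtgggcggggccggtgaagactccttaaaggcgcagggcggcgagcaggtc
Hspa1b: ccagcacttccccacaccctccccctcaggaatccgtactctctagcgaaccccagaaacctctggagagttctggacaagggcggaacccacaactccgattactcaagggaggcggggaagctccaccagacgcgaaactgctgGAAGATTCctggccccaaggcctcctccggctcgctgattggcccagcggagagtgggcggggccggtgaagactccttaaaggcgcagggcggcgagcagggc
The 30 bases around the matches of 3 other members show how the units differ, with the units in capitals. They lie at chr5:149636351-149636380 (minus strand), chr4:40722333-40722362 (plus strand) and chr1:55088053-55088082 (plus strand). The last is shared by Hspe1 and Hspd1 and holds a pair of overlapping 3-unit matches, 89 and 84 bases before the start of Hspe1.
Hsph1: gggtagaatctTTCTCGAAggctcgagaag
Dnaja1: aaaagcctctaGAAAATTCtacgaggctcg
Hspe1: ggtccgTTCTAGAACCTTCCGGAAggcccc

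The libraries are given throughout with control first, TAA next, then the lower and the higher celecoxib dose. They kept 5666, 6460, 5911 and 6062 cells, with medians of 3357, 4571, 1967 and 3100.5 unique molecular identifiers (UMIs). Pairs of libraries shared 7 to 13 cell barcodes. Clusters were named from marker genes as B, T and NK or innate lymphoid (NK or ILC) cells, called lymphocytes here, plasma cells, plasmacytoid dendritic cells (pDC), conventional dendritic cells (cDC1, cDC2), monocytes or macrophages, neutrophils, Kupffer cells, endothelial cells, cholangiocytes and hepatocytes. No cluster of stellate cells was named. UMIs were summed per library and class and given as CPM, the count scaled to the total of the class, for classes with at least 50 cells. Intervals are exact 95% Poisson or conditional binomial intervals and cover counting error only, since molecules of 1 mouse do not stand for other mice. They treat UMIs as independent, so they are too narrow even for the cells of 1 mouse where UMIs sit in few cells. A pair of a gene and a class counts as measured with 30 UMIs in both libraries together and as higher or lower at 1.5-fold, after 10 CPM were added to both sides. The lymphocytes of the libraries also differed in other respects. Mitochondrial transcripts made up 6.77%, 4.72%, 3.63% and 3.57% of B cell UMIs, 13 hepatocyte genes summed to 468, 102, 39.7 and 16.3 CPM there, and 9 neutrophil markers to 63.0, 140, 111 and 725 CPM. Of 6 erythroid markers, 6, 5, 4 and 5 had a UMI in B cells, and they summed to 2231, 45.0, 360 and 652 CPM. Their sums were 603, 494, 53.6 and 44.2 CPM for T cells and 562, 26.6, 59.3 and 40.2 CPM for NK or ILC. Erythroid RNA was thus lowest in the TAA library in B cells and NK or ILC but not in T cells. Their part in the results was not tested.

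Hspa1a and Hspa1b, the stress-inducible HSP70 genes, were lowest in the TAA library in all 8 classes that the 4 libraries share and in all 10 classes that the 3 TAA-treated libraries share. Hspa1a in B cells stood at 260 CPM (95% interval 242 to 279) in control, 71.5 (64.2 to 79.3) in TAA, 308 (287 to 331) in TAA+C7.5 and 470 (437 to 506) in TAA+C30. In T cells it stood at 476 (446 to 507), 132 (122 to 142), 548 (527 to 569) and 842 CPM (814 to 871). In NK or ILC it stood at 309 (261 to 364), 187 (161 to 216), 502 (452 to 555) and 785 CPM (731 to 843). In each lymphocyte class the 4 counting intervals were disjoint, with TAA at the bottom, control next, then the lower and the higher celecoxib dose. Shares of cells with Hspa1a, given further on, were less separate. Their intervals overlapped for control and TAA+C7.5 in all 3 classes, and for control and TAA+C30 in B cells and NK or ILC. In NK or ILC TAA (5.56%, 2.70 to 9.98) also overlapped control (12.5%, 7.01 to 20.1) and TAA+C7.5 (11.2%, 8.04 to 15.2). In B and T cells the TAA interval lay below the others. The place of control also did not hold within the shared B and NK or ILC clusters described further on. TAA+C30 exceeded TAA by 6.58-fold (5.79 to 7.49) in B cells, 6.40-fold (5.88 to 6.96) in T cells and 4.20-fold (3.57 to 4.96) in NK or ILC. The same ratios for TAA+C7.5 were 4.31, 4.16 and 2.68. The ratio of TAA to control was 0.275 (0.242 to 0.313), 0.277 (0.250 to 0.306) and 0.605 (0.484 to 0.758) in the 3 classes.

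**Figure D1:**
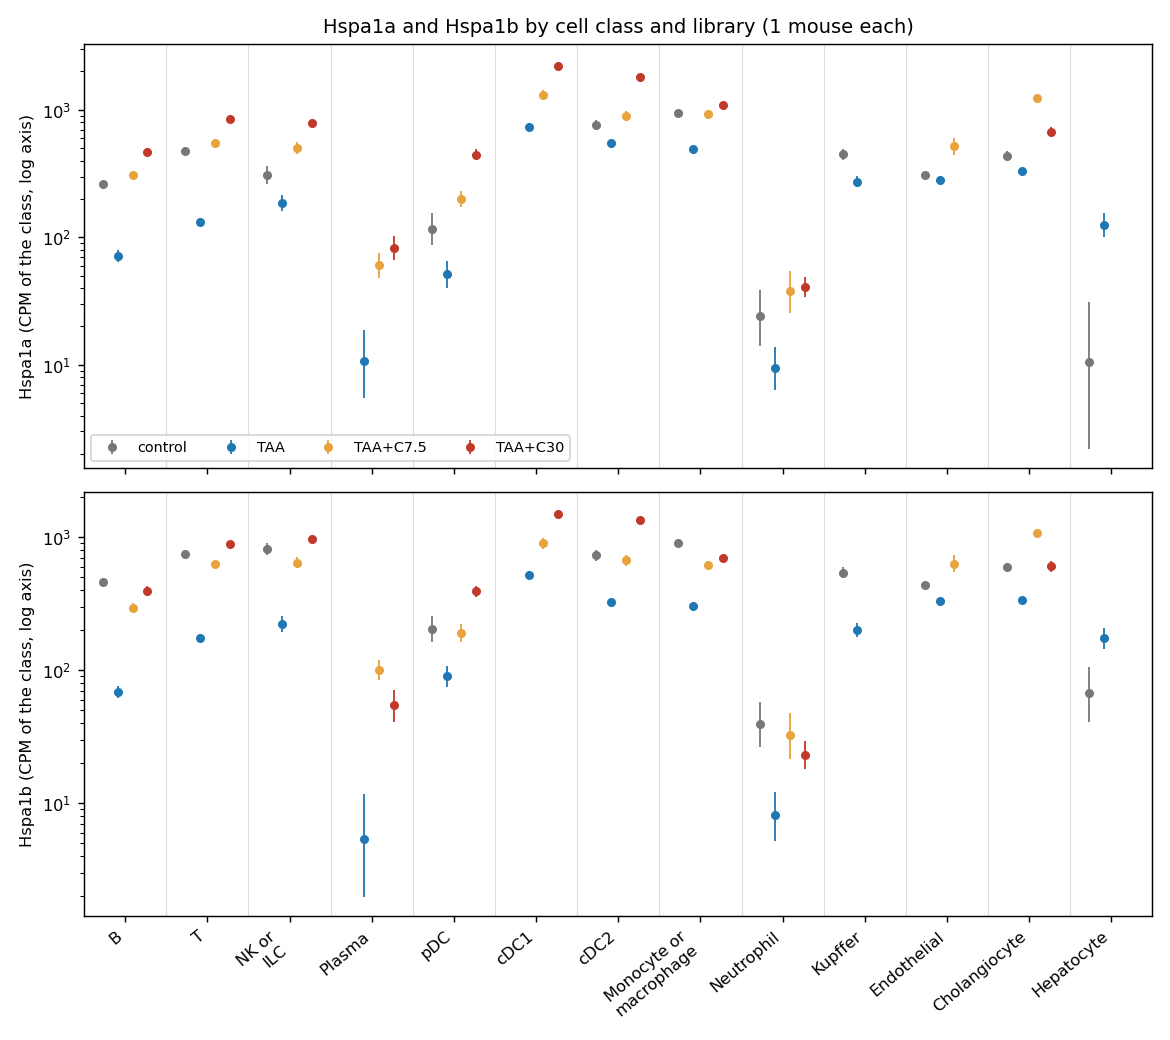
Hspa1a (top) and Hspa1b (bottom) in CPM of the class total, on log axes, by cell class. Points are single libraries of 1 mouse and bars exact 95% Poisson intervals, with gaps where a library held under 50 cells of a class. The TAA library has the lowest point in every class that at least 3 libraries share.

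Hspa1b followed another order against control. It stood at 458, 68.9, 295 and 397 CPM in B cells, at 753, 175, 624 and 882 CPM in T cells, and at 813, 223, 643 and 975 CPM in NK or ILC. TAA was again far below the rest, at 6.66-fold (5.91 to 7.52) under control in B cells. TAA+C7.5 lay under control in all 3 lymphocyte classes, and TAA+C30 lay under it in B cells. TAA+C30 exceeded TAA by 5.77-fold (5.04 to 6.60), 5.04-fold (4.68 to 5.43) and 4.38-fold (3.77 to 5.09) in B, T and NK or ILC. Summed, Hspa1a and Hspa1b were 6.18-fold (5.64 to 6.78), 5.62-fold (5.32 to 5.94) and 4.29-fold (3.85 to 4.80) higher in TAA+C30 than in TAA.

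The balance of the pair therefore differed between libraries. The ratio of Hspa1b to Hspa1a UMIs had a median over classes of 1.58 in control, 0.963 in TAA, 0.943 in TAA+C7.5 and 0.798 in TAA+C30. Hspa1b was above Hspa1a in 9 of 11, 6 of 13, 4 of 11 and 2 of 10 classes. In B cells the ratio was 1.77 (1.61 to 1.93) in control against 0.963 (0.828 to 1.12), 0.958 (0.864 to 1.06) and 0.844 (0.757 to 0.942). In NK or ILC it was 2.63 (2.16 to 3.21) against 1.19, 1.28 and 1.24. Monocytes or macrophages lay below the 3 lymphocyte classes in every library, with 0.958, 0.612, 0.665 and 0.647. Both counts come from the same cells of a library, so the total of the class cancels from this ratio.

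**Figure D2:**
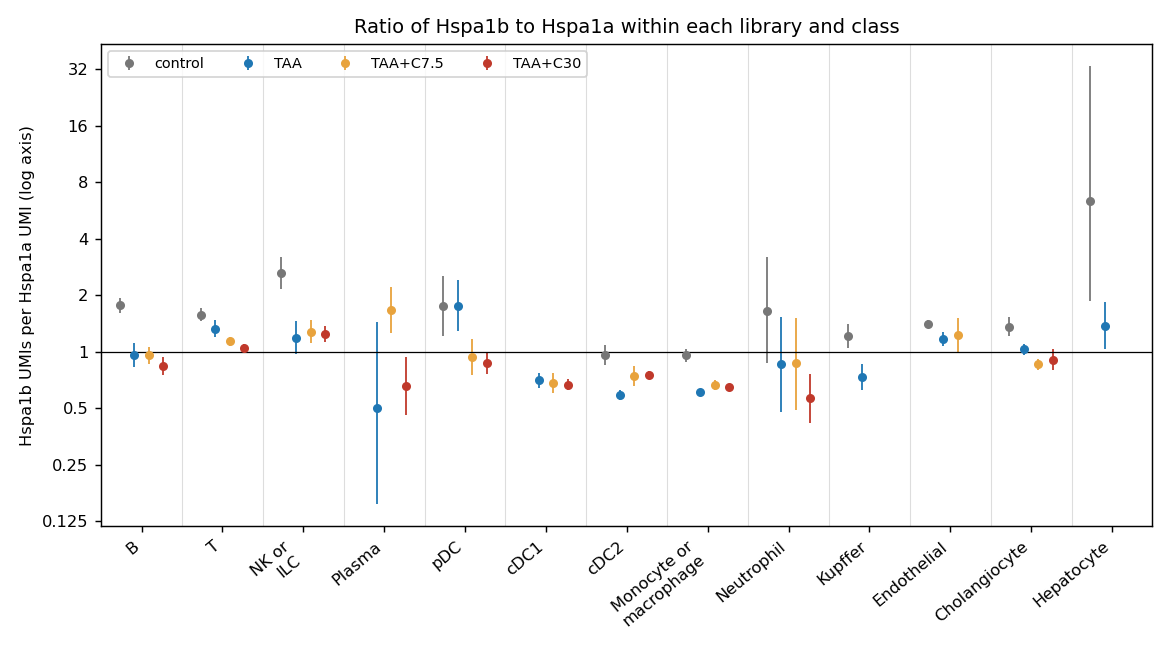
Hspa1b UMIs per Hspa1a UMI on a log axis, by cell class and library, with exact 95% conditional binomial intervals, the line marking equal counts. Control points lie above those of the other libraries in B, T and NK or ILC cells, and monocyte or macrophage points lie below 1 in all libraries.

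Outside lymphocytes the highest Hspa1a levels were in cDC1, the cross-presenting dendritic cells, at 738, 1318 and 2219 CPM in TAA, TAA+C7.5 and TAA+C30. In cDC2 they were 761, 553, 899 and 1805 CPM and in pDC, the interferon-producing dendritic cells, 117, 51.4, 201 and 446 CPM. Monocytes or macrophages had 939, 493, 933 and 1085 CPM. Neutrophils were near the bottom throughout, with 24.0, 9.46, 37.8 and 40.8 CPM, where the intervals of all but TAA overlapped. Plasma cells had 10.7, 60.7 and 82.6 CPM in the 3 TAA-treated libraries. TAA was lowest and TAA+C30 highest of the 3 in 9 of the 10 classes for Hspa1a and in 7 of 10 for Hspa1b, although neighbouring doses did not always differ beyond counting error, as in neutrophils and plasma cells. Cholangiocytes, the bile duct cells, were the exception for Hspa1a, with 437, 331, 1246 and 666 CPM. Hepatocytes were measured only in control and TAA, with Hspa1a at 10.6 and 126 CPM and Hspa1b at 67.2 and 174 CPM. Their high TAA values rested on few cells: after each cell was thinned to 1000 UMIs, 1 of 51 TAA hepatocytes held 51 Hspa1a and Hspa1b UMIs.

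Hsph1, the nucleotide exchange factor of the HSP110 family, came next in size. It stood at 182, 50.6, 78.9 and 131 CPM in B cells, at 330, 114, 234 and 270 in T cells and at 348, 111, 181 and 309 in NK or ILC. Control was its highest library in each of the 3 classes and TAA its lowest. TAA+C30 exceeded TAA by 2.60-fold (2.15 to 3.14), 2.36-fold (2.13 to 2.62) and 2.78-fold (2.22 to 3.49). Dnajb1, the J-domain partner of inducible HSP70, behaved differently against control. It stood at 158, 100, 156 and 253 CPM in B cells, at 201, 200, 376 and 411 in T cells and at 262, 258, 410 and 472 in NK or ILC. Control and TAA had overlapping intervals for their ratio in T cells (0.997, 0.887 to 1.12) and NK or ILC (0.985, 0.790 to 1.23), whereas both celecoxib libraries lay above both. Dnaja1, another J-domain partner, had 660, 425, 639 and 616 CPM in T cells, where TAA+C7.5 and TAA+C30 differed by a ratio of 0.963 (0.913 to 1.02).

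Hspa8, the constitutive HSP70, stood at 855, 589, 760 and 978 CPM in B cells, at 1671, 1087, 1793 and 1724 in T cells and at 1557, 1128, 1863 and 1937 in NK or ILC. TAA was lowest in each, and TAA+C30 was 1.66-fold (1.56 to 1.77), 1.59-fold (1.53 to 1.64) and 1.72-fold (1.59 to 1.85) above it. The HSP90 pair parted. Hsp90aa1, the inducible form, had 757, 559, 784 and 999 CPM in B cells and 1300, 801, 1277 and 1540 in T cells, and TAA stood at 0.560 (0.526 to 0.596) and 0.520 (0.499 to 0.541) times TAA+C30. Hsp90ab1, the constitutive form, had 1235, 1186, 1038 and 1307 CPM in B cells and 1746, 1552, 1777 and 1955 in T cells, with ratios of TAA+C30 to TAA of 1.10 (1.05 to 1.16) and 1.26 (1.22 to 1.30). The mitochondrial pair lay between. Hspe1 had 277, 282, 281 and 415 CPM in B cells and 407, 344, 463 and 543 in T cells, and Hspd1 had 158, 101, 124 and 150 CPM in B cells and 215, 153, 245 and 229 in T cells. For Hspe1 in B cells the ratio of TAA to control was 1.02 (0.933 to 1.11), whereas Hspd1 was 1.56-fold (1.37 to 1.78) lower there in TAA.

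**Figure D3:**
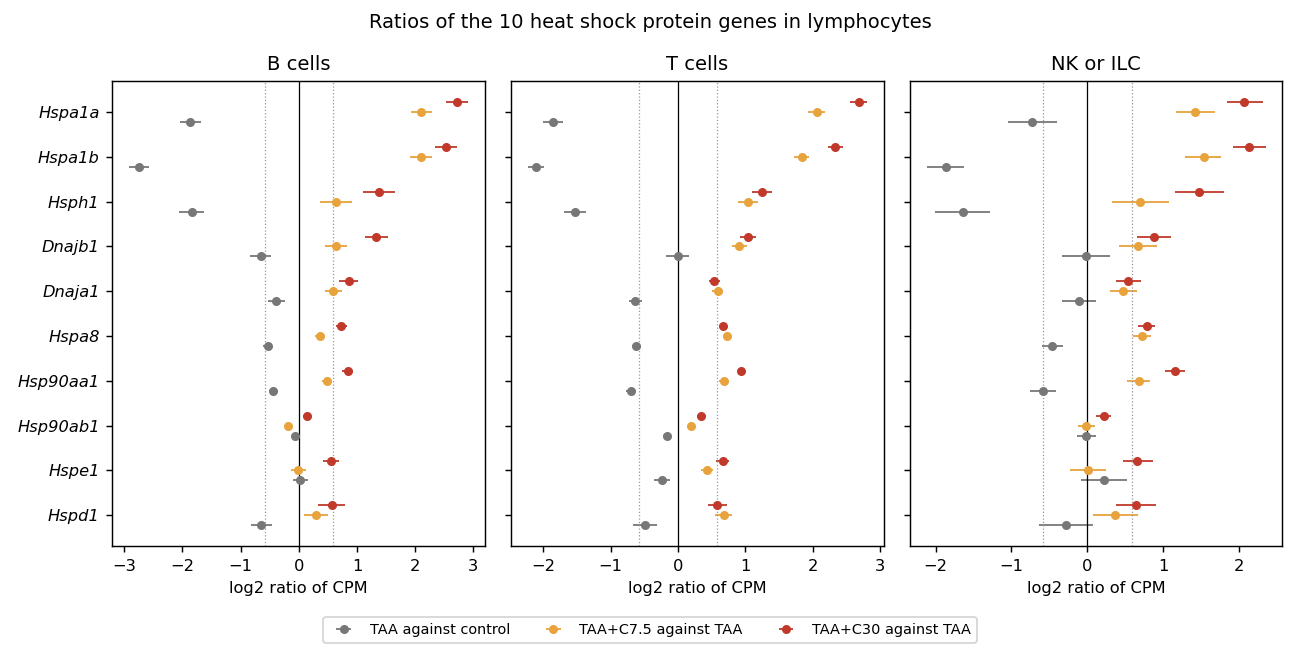
Log2 ratios of CPM for the 10 genes in B cells, T cells and NK or ILC, for TAA against control and for each celecoxib library against TAA, which all share the TAA library. Points are ratios of 2 libraries, bars exact 95% conditional binomial intervals and dotted lines 1.5-fold. Hspa1a and Hspa1b lie farthest right for TAA+C30 against TAA and Hsp90ab1 nearest 0.

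Counted over genes and classes, 59 of 99 measured pairs were at least 1.5-fold higher in TAA+C30 than in TAA (59.6%, against 2.42% of all gene and class pairs) and 2 were lower (2.02%, against 5.04%). In lymphocytes 22 of 30 were higher and 0 lower, against 1.44% and 1.94% of all pairs. This contrast chose the genes, so its counts are a description. The lower pairs were Dnajb1 in cholangiocytes (127 and 73.4 CPM) and Hsp90ab1 in plasma cells (523 and 339 CPM). For TAA+C7.5 against TAA, 47 of 109 pairs were higher (43.1%, against 4.02%) and 0 lower (against 4.47%). In lymphocytes 16 of 30 were higher and 0 lower, against 2.53% and 2.51%. Hspa1a and Hspa1b made up 22 of these 47 pairs, being higher in all 11 classes each, and the medians of the log2 ratios were 1.38 and 1.24. For TAA against control, 40 of 109 pairs were lower (36.7%, against 9.56%) and 6 higher (5.50%, under the 8.18% of all pairs). In lymphocytes 14 of 30 were lower (against 8.84%) and 0 higher (against 4.54%). All 3 comparisons use the TAA library, and the selection of the genes rests on it too, so the 3 sets of counts are not independent of each other or of the selection.

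The comparison of the doses leaves out the TAA library but shares the TAA+C30 library with the selection. In TAA+C30 against TAA+C7.5, 17 of 100 pairs were higher (17.0%, against 2.73%) and 11 lower (11.0%, against 5.32%), with a median log2 ratio of 0.20. When libraries were scaled by trimmed means instead of totals, 23 were higher and 7 lower, so that 76.7% instead of 60.7% of the called pairs were higher. Over all genes the same scaling moved the share of higher calls from 33.9% to 61.3% in this comparison. It moved that share from 46.1% to 64.3% in TAA against control, from 47.4% to 34.4% in TAA+C7.5 against TAA and from 32.5% to 44.2% in TAA+C30 against TAA. In lymphocytes 8 of 30 pairs were higher and 0 lower at the higher dose, against 1.77% and 3.03% of all pairs. Hspa1a was 1.52-fold (1.38 to 1.69), 1.54-fold (1.46 to 1.62) and 1.57-fold (1.38 to 1.78) higher in B, T and NK or ILC, and 2.22-fold (1.86 to 2.66) in pDC and 2.01-fold (1.84 to 2.19) in cDC2. Hsph1 was 1.66-fold (1.36 to 2.04) higher in B cells and 1.71-fold (1.39 to 2.11) in NK or ILC, but 1.15-fold (1.06 to 1.26) in T cells. Hspa8 in T cells had a ratio of 0.961 (0.931 to 0.992).

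Cholangiocytes ran the other way between doses, with more lower pairs than any other class. Of the 10 genes, 7 were at least 1.5-fold lower in TAA+C30 than in TAA+C7.5 there and 0 higher, against 5.88% and 3.94% of the 8502 genes measured in that class. Dnajb1 had 133, 127, 245 and 73.4 CPM, 3.34-fold (2.50 to 4.54) lower at the higher dose, and Hspa8 had 907, 979, 1610 and 939 CPM, 1.71-fold (1.57 to 1.87) lower. TAA+C7.5 was the highest library for both, and for Hspa1a and Hspa1b. The cells differed too. Of 85 cholangiocytes in control, 76 lay in a cluster with 14, 0 and 1 cells of the other libraries. Of 76 cholangiocytes in TAA+C30, 40 lay in a cluster led by Mmp7, and of 153 in TAA+C7.5, 70 lay in one led by Anxa13. Immediate early genes summed to 28349 CPM in cholangiocytes of TAA+C7.5 and 12501 in those of TAA+C30. Their part in the difference was not tested. The other lower pairs between doses were 3 of 10 in plasma cells and 1 of 10 in neutrophils, with 0 higher in either. The 10 genes had median log2 ratios of -0.46 and -0.18 in these classes, and all genes -0.21 and -0.23. In plasma cells Hspa1b had 101 CPM in TAA+C7.5 and 54.4 in TAA+C30, and Hsp90ab1 had 566 and 339. Hspa1a went the other way there, with 60.7 and 82.6 CPM.

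At the level of cells, Hspa1a was found in a minority of lymphocytes. After thinning each cell to 1000 UMIs and leaving out shallower cells, it was found in 8.64%, 2.99%, 7.39% and 11.2% of B cells. The shares were 14.1%, 6.05%, 16.4% and 24.7% for T cells and 12.5%, 5.56%, 11.2% and 22.1% for NK or ILC. Left out were 23, 12, 196 and 88 B cells, 19, 21, 151 and 82 T cells, and 4, 0, 39 and 28 NK or ILC. Without thinning the shares were 13.6%, 5.40%, 8.74% and 14.5% in B cells, at median depths of 3173, 3310, 1557.5 and 1904 UMIs, and 21.6%, 11.9%, 20.9% and 33.3% in T cells, at 4823.5, 4985, 2232 and 2835 UMIs. For NK or ILC they were 16.4%, 10.6%, 13.9% and 25.5%, at 3978, 5129.5, 1831 and 3009.5 UMIs. Thinned neutrophils, the class with the lowest levels among those in all libraries, had 1.20%, 0.916%, 2.64% and 2.66%, against 5.34%, 2.44%, 2.58% and 5.37% without thinning at 2688, 2342, 1204 and 1846 UMIs. Every thinned lymphocyte share lay above that of neutrophils in its library.

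The UMIs sat in few cells. In TAA+C30, the 10% of B cells with the most Hspa1a and Hspa1b UMIs held 93.2% of them, and in T cells the top 10% held 64.8%. Such a share is also high where UMIs are merely sparse, as in neutrophils of TAA+C30 (100%). The variance of the pair's UMIs over thinned cells was 9.61 and 9.94 times the mean in those B and T cells, against 1.01 in those neutrophils. Cells with at least 3 UMIs of the pair per 1000, a limit set after the values were seen, made up 6.91%, 1.64%, 5.43% and 8.65% of B cells. In T cells they made up 16.6% (95% Clopper-Pearson interval 13.1 to 20.7), 4.15% (2.94 to 5.67), 14.7% (13.1 to 16.4) and 22.7% (20.3 to 25.2), and in NK or ILC 15.2%, 6.11%, 13.7% and 21.1%. In cDC1 they were 19.1%, 25.8% and 51.0% in the 3 TAA-treated libraries. Within these high cells the level varied less than their share, which the limit of 3 UMIs in part fixes, since it bounds the level from below. The mean was 9.83, 6.86, 10.6 and 8.61 UMIs of the pair in B cells and 7.44, 6.03, 8.09 and 8.41 in T cells. The TAA library thus had fewer high cells, at 22 of 1339 B cells and 37 of 892 T cells, with the lowest mean in both classes. In NK or ILC its mean of 7.36, over 11 cells, lay among those of the others, at 7.18, 7.38 and 6.90.

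**Figure D4:**
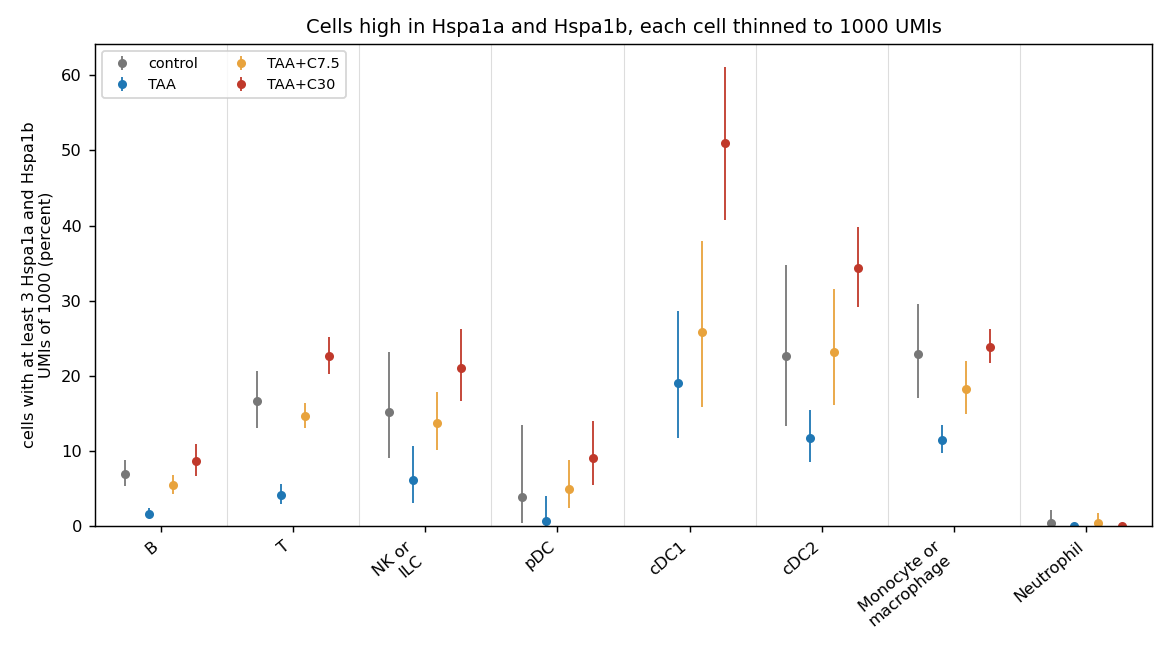
Share of cells with at least 3 Hspa1a and Hspa1b UMIs after thinning to 1000 UMIs, in percent, by cell class and library, with exact 95% Clopper-Pearson intervals for counting error. The TAA library has the lowest share of the libraries shown in 7 of the 8 classes and cDC1 of TAA+C30 the highest of all.

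Cells high in the pair also held more of the other members per UMI. The ratio over the 8 other genes ran from 1.42 in cDC1 of TAA+C7.5 to 3.77 in B cells of TAA, over 25 pairs of a library and a class. For single members 4 of 200 ratios were below 1, namely Hspd1 in NK or ILC (0.494) and in cDC2 (0.981) of TAA, Hspe1 in cDC1 of TAA (0.719) and Dnajb1 in cDC1 of TAA+C7.5 (0.485). In T cells of TAA+C30, 264 high cells were set against 767 cells with no UMI of the pair after thinning. The 8 other genes were 2.66 times as high in the high cells, and the 767 held 5.27 of them per 1000 UMIs. Hsph1 differed by 7.17 times (0.841 and 0.117 UMIs per 1000), Dnajb1 by 4.63, Hsp90aa1 by 4.39, Hspd1 by 2.96, Dnaja1 by 2.28, Hspe1 by 2.20, Hsp90ab1 by 2.02 and Hspa8 by 1.86. In B cells of TAA+C30 the ratio over the 8 was 3.69, led by Dnajb1 at 11.5 and Hsph1 at 8.61. These are cells of 1 library and no replicates. Mitochondrial shares of high and of pair-negative T cells were 2.59% and 2.58%, and their median depths 2659 and 3093 UMIs. Immediate early genes stood at 16.7 against 11.7 UMIs per 1000, so that they too were higher in the high cells. Cells with no UMI of the pair after thinning can still hold UMIs that thinning dropped. Among them the ratio of TAA+C30 to TAA for the 8 other genes was 1.28, 1.30 and 1.22 in B, T and NK or ILC. It was 1.18 in cDC2, 1.56 in pDC and 0.915 in cDC1.

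Hspa1a was also compared within single clusters, made without heat shock and immediate early genes. In a T cluster led by Dapl1 and Lef1, Hspa1a stood at 197, 83.8, 312 and 409 CPM. In one led by Il17a and Tnfrsf4 it stood at 194, 596 and 892 CPM in the 3 TAA-treated libraries, and in one led by Gzmk and Pdcd1 at 213, 1081 and 1149 CPM. A T cluster led by Klrg1 had 261, 80.5 and 491 CPM, where the middle value rests on 12 UMIs of 84 cells and TAA was not the lowest. In the clustering behind the classes, a cluster led by Klrg1 was left unnamed, with 27, 58, 74 and 96 cells. It is thus not among the T cells above. In an NK or ILC cluster led by Klra4 and Klra8 it stood at 232, 258, 386 and 937 CPM, so that control was not above TAA there. A neutrophil cluster led by Amer2 had 10.9, 85.0 and 31.2 CPM in the 3 TAA-treated libraries, with the lower dose on top. These values rest on 15, 17 and 11 UMIs. The log2 ratio of TAA+C30 to TAA was above 0 in all 17 clusters with at least 50 cells in both libraries, from 0.89 to 2.79. Control B cells clustered apart: 719 of them lay in a cluster that held 11, 3 and 1 cells of the other libraries. In the only B cluster with at least 50 cells of each library (63, 632, 1115 and 617), Hspa1a stood at 442, 51.9, 328 and 418 CPM, so that control was not below the celecoxib libraries there. The T cells of the libraries also lay in different clusters. One led by Pdcd1 and Gzmk held 2, 11, 423 and 190 cells, and one led by Pdcd1 and Nap1l3 held 0, 16, 171 and 64. Another, led by Il4 and Cd40lg, held 131, 7, 2 and 1. Shared clusters were also given the same weight in both libraries, set by their cells in both together. The log2 ratio of Hspa1a in T cells was then 2.34 for TAA+C30 against TAA and -1.47 for TAA against control. Clusters with few cells in either library were left out, so the latter used 659 of 953 TAA and 282 of 444 control T cells. B cells and NK or ILC enter only the ranges given at the end. There TAA against control used 149 of 889 and 109 of 114 control cells.

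Other lists of chaperones and of protein turnover were counted in the same way. In lymphocytes, TAA+C30 against TAA, 0 of 24 pairs of the TRiC chaperonin, 0 of 27 of mitochondrial chaperones and proteases, 0 of 60 of endoplasmic reticulum chaperones and 0 of 93 of proteasome subunits were past 1.5-fold in either direction, where all pairs had 1.44% higher and 1.94% lower. For lists this short a count of 0 is near that background. Other J-domain proteins had 0 of 41 and other HSP70 and HSP110 genes 0 of 15 past it. The list medians of these 6 lists lay between -0.10 and 0.02 on the log2 scale. Small heat shock proteins had only 2 measured pairs, both within 1.5-fold. Cochaperones of HSP70 and HSP90 had 5 of 65 higher and 0 lower (median 0.07), also against 1.44% and 1.94%. Cacybp, which binds ubiquitin ligase complexes, had 73.3 and 131 CPM in B cells of TAA and TAA+C30, and Ahsa1, the activator of the HSP90 ATPase, had 62.2 and 105. In TAA against control 15 of 62 cochaperone pairs were lower and 0 higher, against 8.84% and 4.54% of all pairs. Endoplasmic reticulum chaperones then had 8 of 60 lower and 0 higher, and proteasome subunits 7 of 93 higher and 0 lower. Stip1, which links HSP70 to HSP90, had 149 CPM in T cells of control and 62.3 in TAA, with 71.3 and 61.8 in the celecoxib libraries.

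In lymphocytes, 1.44% of all pairs were higher and 1.94% lower in TAA+C30 against TAA. Heat shock factors and regulators had 1 of 17 pairs higher and 0 lower there (median 0.24). That pair was Ier5, a target of heat shock factor 1 that acts back on it, at 390 and 590 CPM in B cells, while Hsf1 itself had 48.7, 45.4, 49.4 and 37.9 CPM there. Other heat-inducible genes had 5 of 27 higher and 0 lower (median 0.19), against the same shares of all pairs. Ubb, a polyubiquitin gene, had 566, 908, 1513 and 1541 CPM in B cells and 689, 1093, 1845 and 1851 in T cells, so that here control and not TAA was lowest. Gadd45b, a stress-induced growth arrest gene, had 167 and 381 CPM in NK or ILC of TAA and TAA+C30. Cold-inducible RNA-binding proteins had 0 of 9 past 1.5-fold in TAA+C30 against TAA. However, 6 of 9 were higher in TAA than in control (median 0.73), against 4.54% of all pairs. Rbm3 stood at 334, 814, 759 and 839 CPM in B cells and at 374, 1009, 972 and 1066 in NK or ILC. For Rbm3 control was the lowest library in both classes, and for Hspa1a TAA was. In the NK or ILC cluster led by Klra4, however, Hspa1a was lowest in control, at 232 CPM against 258 in TAA. Hepatocyte genes, searched as free RNA, had 7 of 9 pairs lower in TAA+C30 than in TAA and 0 higher (median -1.02). Of all pairs, 1.94% were lower and 1.44% higher.

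**Figure D5:**
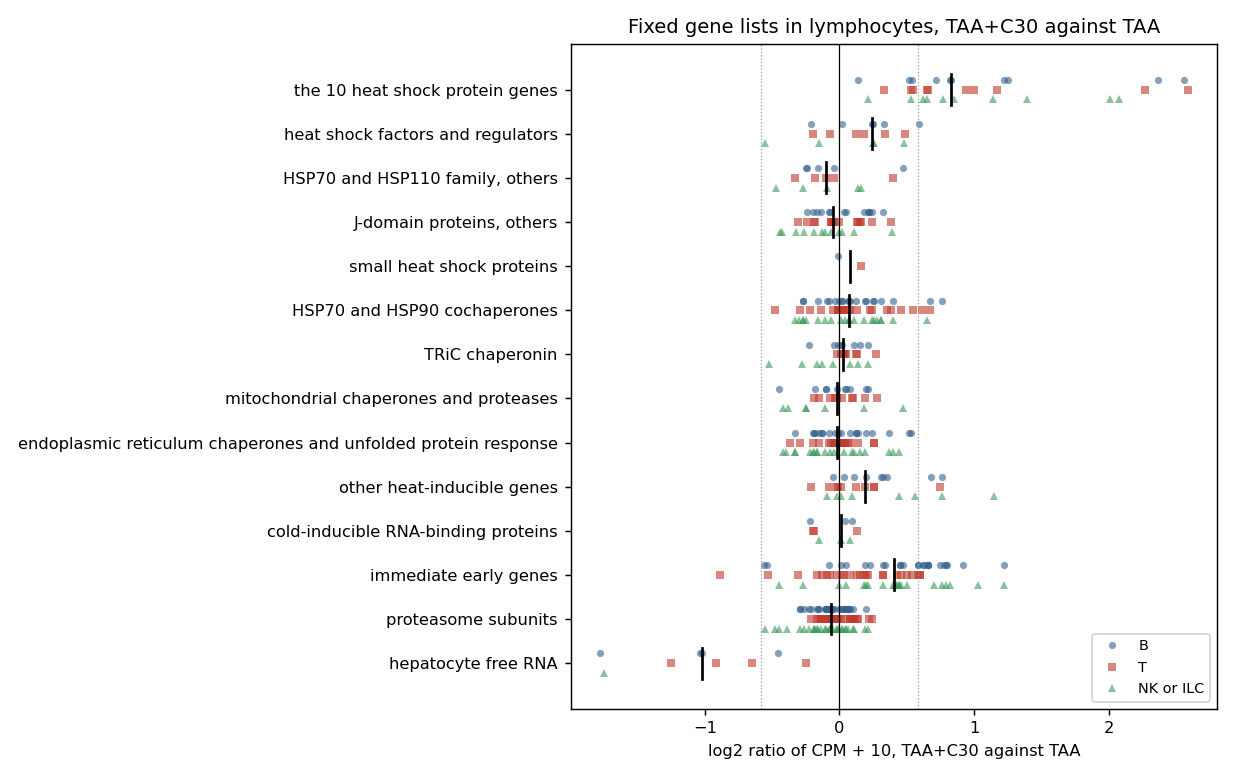
Log2 ratio of CPM + 10 in TAA+C30 against TAA for genes of the fixed lists in B cells, T cells and NK or ILC. Each point is 1 gene in 1 class with at least 30 UMIs, black bars are list medians and dotted lines 1.5-fold. The 10 heat shock protein genes, which were chosen for this contrast, have the highest median, followed by immediate early genes at 0.40.

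Immediate early genes, which are induced within minutes of a stimulus, followed the members in some classes only. In lymphocytes 19 of 72 pairs were higher and 1 lower in TAA+C30 against TAA (median 0.40), against 1.44% and 1.94% of all pairs. In TAA+C7.5 against TAA 13 were higher and 3 lower (median 0.30), against 2.53% and 2.51%. Their summed level in B cells was 12006, 8842, 12134 and 13509 CPM, with TAA lowest as for Hspa1a. In T cells it was 13944, 10487, 12656 and 12086 CPM, where TAA+C30 lay under control and under TAA+C7.5, whereas Hspa1a was highest in TAA+C30. In NK or ILC it was 12243, 12397, 19543 and 17272 CPM, where control lay beside TAA. In another setting, each of 4 bins of immediate early share had the same weight in both libraries, set by its cells in both together. The log2 ratio of Hspa1a in TAA+C30 to TAA was then 1.71, 2.31 and 1.81 for B cells, T cells and NK or ILC. Without such weights it was 2.56, 2.59 and 2.01. The same weights gave Hspa1b a log2 ratio of 0.20 in NK or ILC for TAA+C7.5 against TAA, in place of 1.49, which ended that call.

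The genes most like Hspa1a were sought over 45 pairs of a library and a class, as a description, since pairs share libraries and depth. Among 6566 genes, Hspa1b correlated with it at 0.95 and Hspa8 at 0.83 (Pearson correlation of log2 CPM with 10 added), and of the other members Hspd1 was least like it at 0.46. Outside the members Snx1 came first at 0.83, followed by Rsl24d1, Cox7a2l and Snrpb at 0.77, Igbp1 and Washc3 at 0.76, Sdad1 and Sfxn3 at 0.75, and Anp32b and Eif3k at 0.74. Centring each gene within its class, a choice made after the data were seen, left 32 pairs of 8 classes. Outside the members Rps10 then stood at 0.86, Rpl27a at 0.78, Capza1 at 0.75, Rpl13a and Rpl15 at 0.73, Hspb1, a small heat shock protein, at 0.72, Rps6 at 0.71, and Rnaset2a and Rnaset2b at 0.70. Rps10 stood at 849, 784, 1220 and 1514 CPM in B cells. Among members Hspa1b (0.90), Hspa8 (0.82), Dnajb1 and Hsp90aa1 (both 0.80) were then most like Hspa1a and Hsp90ab1 (0.38) least.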

How the data were processed

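The deposited matrices hold whole-number UMI counts per gene and barcode, made with Cell Ranger 3.1.0 on mm10, per the submitters' processing notes, from 3 prime droplet libraries, per the labels' protocols. The gene annotation and cell calling settings are not given in the sources used here. Dense text tables of the same libraries were not used. Barcodes under 200 genes (117, 210, 10 and 59) or over 20% mitochondrial UMIs (678, 193, 24 and 47) were removed, and Scrublet in Scanpy 1.11.5 removed 122, 52, 172 and 116 doublets. The libraries held 26603317, 48419305, 17888247 and 27555592 UMIs. Leiden clustering of all cells (2000 variable genes, 30 components, resolution 1, with mixed clusters split again) gave 72 clusters, 11 of them unnamed. A name needed 3 detected markers at least 2-fold above the other clusters. Without heat shock and immediate early genes 94.3% of cells kept their class. Levels are CPM of summed counts. Trimmed-mean factors came from edgeR 4.0.16. Coordinates are from GENCODE M21, and the functions were tested on simulated data. Named are all 10 members, up to 2 genes per chaperone list, comparison and direction with the largest ratio in lymphocytes, and the 10 genes most like Hspa1a. Hsf1, the genes of the centred correlation and the single clusters were chosen after their values were seen. Of that correlation, 1 gene is not reported here. Members, lists and comparisons were chosen with earlier results of these data known. There are no replicates, so no p-value was computed. The alternatives were other scalings, filters, thresholds, classes and cell weights.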

Additional observations from a re-analysis of the deposited data

Results flagged for a closer look

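These results are listed because a member was at least 1.5-fold higher in a class and lower in another under the same contrast, with counting intervals on either side of equality, or because cells outside the named classes carried signal. No difference between classes was tested, and each value is a log2 ratio of 2 libraries. In TAA against control, Hspa1a was at 2.72 in hepatocytes and -1.78 in T cells, Hspa1b at 1.25 in hepatocytes and -2.57 in B cells, and Hsp90aa1 at 1.70 in hepatocytes and -0.85 in pDC. The Hspa1a value of hepatocytes compares 3 UMIs in control with 84 in TAA, a CPM ratio of 11.9 (95% interval 3.93 to 58.7). Kupffer cells gave 0.62 for Dnajb1 and 0.63 for Hspa8, against -0.80 for Dnajb1 in neutrophils and -0.97 for Hspa8 in pDC.

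In TAA+C30 against TAA, Dnajb1 was at 1.25 in B cells and -0.72 in cholangiocytes. In TAA+C30 against TAA+C7.5, the lower class was cholangiocytes for each listed gene. Hspa1a was at 1.11 in pDC and -0.89 in cholangiocytes, Hspa1b at 1.01 in pDC and -0.81, Hsph1 at 0.80 in cDC2 and -0.90, Dnajb1 at 0.66 in B cells and -1.61, and Hsp90aa1 at 0.61 in cDC1 and -0.75.

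The clusters that could not be named held 16.3%, 4.37%, 2.13% and 3.41% of cells. Hspa1a stood there at 209 (95% interval 186 to 234), 179 (149 to 214), 206 (149 to 278) and 330 CPM (282 to 384), so that TAA+C30 was above control. These cells differed in kind between libraries. Of 921 in control, 802 lay in a cluster led by Jcad, with a median of 896 UMIs and 0 cells of TAA+C30. Of 207 in TAA+C30, 96 lay in a cluster led by Klrg1. The part of these cells in the difference was not tested.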

How the results depend on the processing

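The 10 genes were recomputed under 17 alternatives. Those that change only the threshold or the UMI limit leave ratios as they are and entered the counts alone. Adding another CPM value to both sides cannot change a sign, so part of the kept signs was fixed in advance. Summing Hspa1a and Hspa1b leaves the ratios of the other genes as they are, and these unchanged values are also counted. Under that setting the value counted for Hspa1a is that of the sum. Of the lymphocyte ratios past 1.5-fold, 0 changed sign in 830 recomputed values, and 748 stayed past it. They stayed so in 295 of 305 values for TAA+C30 against TAA, the contrast that chose the genes. The counts were 199 of 221 for TAA+C7.5 against TAA, 169 of 193 for TAA against control and 85 of 111 between doses. Hspa1a in TAA+C30 against TAA ranged from 1.56 to 3.49 on the log2 scale. For Hspa1a, 40 of 42 values stayed past 1.5-fold in TAA against control, from -2.51 to -0.47, and 30 of 42 between doses, from 0.38 to 1.28. The count of pairs higher in TAA against control (6) was 0 with a 10% mitochondrial filter and 1 without the 10% of cells with the highest doublet score. At 2-fold, 20 pairs in place of 40 were lower in TAA than in control, 17 in place of 47 were higher in TAA+C7.5 than in TAA, 26 in place of 59 were higher and 0 in place of 2 lower in TAA+C30 than in TAA, and 3 in place of 17 were higher and 1 in place of 11 lower at the higher dose than at the lower. Weighting immediate early bins alike in both libraries gave 29 higher pairs for TAA+C7.5 against TAA. It also gave 0 lower for TAA+C30 against TAA and 1 lower between doses. For TAA+C7.5 against TAA, 1 pair was lower in thinned cells and 1 in means per cell without the cells highest in the members. The 2 lower pairs of TAA+C30 against TAA became 0 with 50 CPM added, 1 with trimmed-mean scaling and 0 without high doublet scores. They became 1 with marker-score classes, 5 with clusters weighted alike in both libraries and 1 in means per cell. Between doses, the 17 higher pairs became 10 with 50 CPM added and 11 with Hspa1a and Hspa1b summed. The 11 lower pairs became 7 with trimmed-mean scaling, 1 without high doublet scores, 7 with marker-score classes, 4 in thinned cells and 6 in means per cell. Without high doublet scores fewer pairs were measured (79 in place of 100). The cause of the other shifts was not tested. Calls over all pairs were counted only at 1.5-fold, under the main setting and the other scalings. Whether members lost more or fewer calls than all pairs at the remaining settings was not tested. No paired analysis was possible because each group has 1 mouse.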
